A study of Homo sapiens with 4 samples.

Results

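The enzymes described here make serine, pass its carbon to glycine and folate, and make proline. They are the 10 genes PHGDH, PSAT1, PSPH, SHMT1, SHMT2, MTHFD1L, MTHFD2, ALDH1L2, PYCR1 and ALDH18A1, chosen by name among the 58735 genes of the deposited count table, and each name matched 1 row. All 10 had a mean of at least 1 CPM, the reads of a gene scaled to the library total, as did 14585 genes in all. The cells were MDA-MB-231, an established line of human breast cancer of the triple-negative type, transduced with a doxycycline-inducible fusion of histone H2B and eGFP. All 4 groups shared that transgene, doxycycline at 5 μg/ml for 3 days, loading with the Claret and Violet dyes, and a chase of 12 days in which dividing cells dilute each label. From these cells the top 1% for Claret, for H2B-eGFP or for Violet was sorted as slow-cycling cells, and Bulk was sorted with no fluorescence gate. Whether the transduced line was 1 clone is not given in the sources used here. Each group is 1 library, so no difference has a replicate check, and the 3 slow-cycling libraries are all set against the same Bulk library.

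Serine is made from a glycolytic intermediate by PHGDH, PSAT1 and PSPH in turn. Serine hydroxymethyltransferase, cytosolic SHMT1 or mitochondrial SHMT2, then moves 1 carbon of serine onto folate and leaves glycine. In mitochondria MTHFD2, MTHFD1L and ALDH1L2 oxidize that carbon to formate or carbon dioxide, and in the cytosol MTHFD1 handles formate for purine and thymidylate synthesis. Proline is made from glutamate by ALDH18A1 and then PYCR1 in mitochondria. Many of these genes are known targets of ATF4, the transcription factor of the amino-acid and unfolded-protein stress response, and folate enzymes of nucleotide synthesis are known for high expression in dividing cells.

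Each library is called by its title, which names a different sort from the treatment field of the same sample in all 4 cases: that field gives Claret for the title Bulk, eGFP for Claret, Violet for H2B-eGFP and an un-gated sort for Violet. The column names of both deposited tables match the titles. Between 15508179 and 16976909 reads fell in genes in each library. A count of 3, the limit that 0 reads allow, corresponded to 0.177 to 0.190 CPM, and intervals and floors cover counting error only. VIM, CD44, CAV1, AXL and KRT18, which MDA-MB-231 cells are known to express, had 2690 reads or more in every library. Of the genes listed as low in triple-negative cells, PGR had 0 reads and ESR1 had 3 to 7. ERBB2, also on that list, was not low, with 1415 to 1542 reads (89.6 to 92.2 CPM). Among 6 markers of other cell types, CD3E and HBB had 0 reads, PTPRC and ALB had at most 6, PECAM1 had 54 to 87 and COL1A1 284 to 363. The division genes MKI67, TOP2A, CCNB1, PCNA and MCM2 were all called lower in Claret, eGFP and Violet, with log2 ratios from -3.31 to -1.92, so that all 5 were highest in the library titled Bulk. Their part in the differences below was not tested. In sorted populations, more cells with a transcript and more transcript per cell cannot be told apart.

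A gene was called when its log2 ratio of CPM was at least 1 in size and an exact binomial test on the reads of the 2 libraries gave an adjusted p under 0.05 over all 14585 genes. That test compares libraries, not conditions. Against Bulk, 5 of the 10 enzymes were called higher and 1 lower in Claret, 5 higher and 1 lower in eGFP, and 4 higher and 1 lower in Violet. Over all genes tested, 11.2% were called higher and 6.67% lower in Claret, 11.9% and 7.6% in eGFP, and 11.3% and 7.01% in Violet. The median log2 ratio of the 10 enzymes was 1.05 (Claret), 0.94 (eGFP) and 0.86 (Violet), beside medians of -0.01, -0.01 and 0.00 over all genes. PHGDH, PSAT1, ALDH1L2 and PYCR1 were called higher and SHMT1 lower in all 3 libraries, MTHFD2 was called in Claret and eGFP, and PSPH, SHMT2, MTHFD1L and ALDH18A1 were called in none. Over all genes tested, 8.36% were called higher and 4.92% lower in all 3 comparisons, which share Bulk. ALDH1L2 was at 0.444 CPM in Bulk and passed the filter of 1 CPM only through the libraries where it was higher, so its call carries no weight in these counts. With a filter at 10 CPM, which leaves ALDH1L2 out, 4, 4 and 3 enzymes were called higher in Claret, eGFP and Violet, and the medians were 0.94, 0.83 and 0.77. Grouped by the treatment field instead of the titles, 1 enzyme was called higher and 4 lower in Claret, and 0 in eGFP or Violet.

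**Figure D1:**
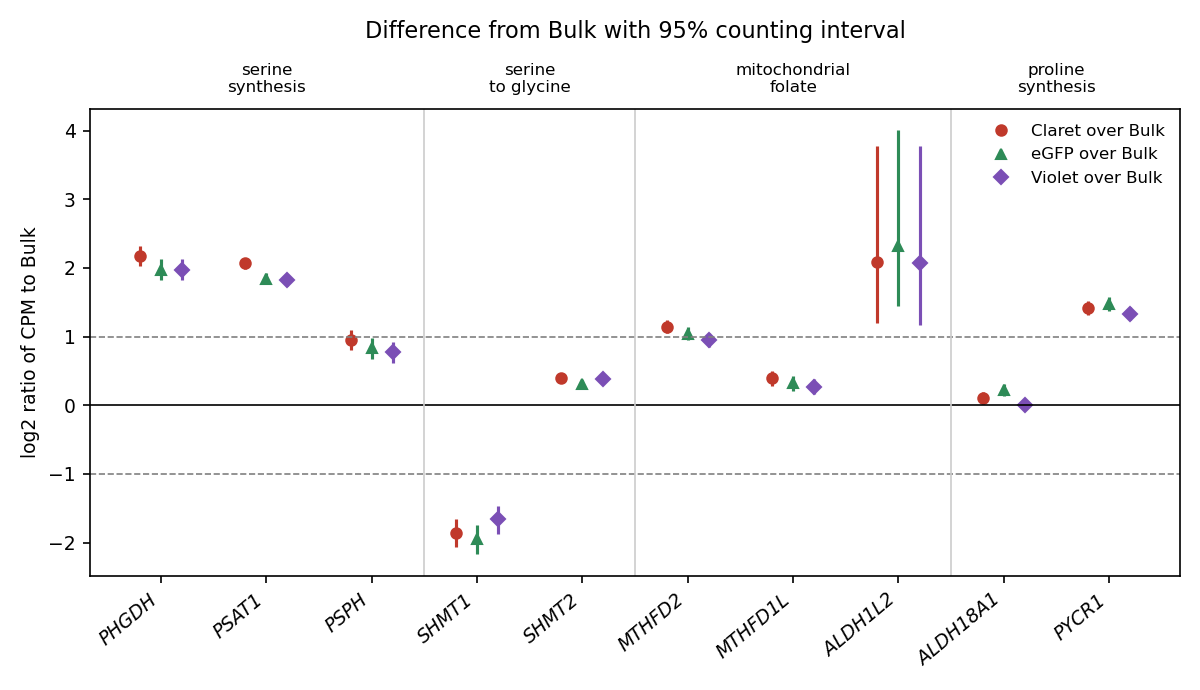
Log2 ratio of CPM to Bulk (vertical axis) for each enzyme gene in Claret (circles), eGFP (triangles) and Violet (diamonds), 1 library each. Vertical bars are 95% exact counting intervals, dashed lines mark ratios of 1 and -1, and SHMT1 is the only gene of the 10 whose points lie below 0.

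RefSeq promoter entries (GRCh38.p14) matched 6 of the 10 genes, namely PHGDH, PSAT1, SHMT1, MTHFD2, MTHFD1L and ALDH18A1, and did not match PSPH, SHMT2, ALDH1L2 and PYCR1. The windows of PSAT1 and MTHFD2, which were higher than Bulk, of ALDH18A1, which differed least, and of SHMT1, which was lower, are shown because these genes span the range of differences. Each run reads 5′ to 3′ on the gene's strand and covers the part of the 250 bases before the RefSeq start that lies outside untranslated regions of GENCODE 29, which take up most of the window of PHGDH. Capitals mark matches on either strand to CCAAT, bound by NF-Y, or to the ATF-type sequences TGATGNAA and TGACGTNA.
PSAT1, chr9:78296875-78297124, plus strand: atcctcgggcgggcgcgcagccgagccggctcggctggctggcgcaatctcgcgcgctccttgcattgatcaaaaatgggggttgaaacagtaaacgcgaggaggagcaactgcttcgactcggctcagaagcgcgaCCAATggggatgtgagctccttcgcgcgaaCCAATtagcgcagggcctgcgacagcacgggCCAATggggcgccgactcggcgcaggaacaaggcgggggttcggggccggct
MTHFD2, chr2:74198365-74198561, plus strand: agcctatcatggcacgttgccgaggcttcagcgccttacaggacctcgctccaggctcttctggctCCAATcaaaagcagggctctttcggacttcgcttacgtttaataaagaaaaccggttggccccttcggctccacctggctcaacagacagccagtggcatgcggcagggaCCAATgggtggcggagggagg
ALDH18A1, chr10:95656712-95656961, minus strand: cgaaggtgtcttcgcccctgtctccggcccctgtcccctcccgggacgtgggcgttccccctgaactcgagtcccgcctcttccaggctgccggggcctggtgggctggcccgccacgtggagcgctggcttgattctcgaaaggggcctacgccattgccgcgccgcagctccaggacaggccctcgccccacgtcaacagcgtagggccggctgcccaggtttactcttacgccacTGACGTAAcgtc
SHMT1, chr17:18363564-18363800, minus strand: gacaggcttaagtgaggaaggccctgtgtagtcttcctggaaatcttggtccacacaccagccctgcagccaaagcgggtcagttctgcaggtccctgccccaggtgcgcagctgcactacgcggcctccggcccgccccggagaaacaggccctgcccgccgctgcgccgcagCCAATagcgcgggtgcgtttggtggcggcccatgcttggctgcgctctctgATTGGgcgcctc

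Over the whole 250 bases, PSAT1 held 3 CCAAT matches, at 113, 83 and 52 bases before the start. MTHFD2 and SHMT1 held 2 each, PHGDH held 1, and ALDH18A1 held 0. MTHFD1L held 1 in each of 3 of its 4 windows, which overlap there, so that it was the same site. CCAAT occurred in 32% of all 35116 promoter windows of this length. TGATGNAA occurred in 3.14% of all windows and, among the members, in 2 of the 4 windows of MTHFD1L, where the same site lay in both and overlapped an annotated untranslated region. TGACGTNA occurred in 2.67% of all windows and, among the members, 12 to 5 bases before the start of ALDH18A1. The AP-1 sequence TGANTCA, which occurred in 6.57% of all windows, was in no window of these 6 genes. The windows of PHGDH, PSAT1, MTHFD2 and SHMT1 held neither ATF-type sequence. Matches describe letters and are not binding sites, and no match says only that these letters are not in the window.

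Within serine synthesis, the first and second enzymes differed from Bulk more than the last. PHGDH (ENSG00000092621, chromosome 1, 119648411 to 119744226, GRCh38) encodes the dehydrogenase that commits carbon to serine. It had 445 reads in Bulk against 2164 (Claret), 1770 (eGFP) and 1763 (Violet). Bulk was the lowest of the 4 libraries, and the log2 ratios were 2.17 (95% interval 2.03 to 2.33), 1.98 (1.83 to 2.13) and 1.98 (1.83 to 2.14) in that order. In Claret 1.98% of all genes tested had a higher ratio than PHGDH.

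PSAT1 (ENSG00000135069, chromosome 9, 78297143 to 78330093), the aminotransferase of the second step, had 1510 reads in Bulk against 6823 (Claret), 5476 (eGFP) and 5345 (Violet). Again Bulk was lowest and Claret highest, with log2 ratios of 2.07 (1.99 to 2.15), 1.85 (1.77 to 1.93) and 1.82 (1.74 to 1.90). PSPH (ENSG00000146733, chromosome 7, 56011051 to 56051604), the phosphatase that releases serine, had 557, 1156, 999 and 955 reads over Bulk, Claret, eGFP and Violet in turn. Its log2 ratios of 0.94 (0.80 to 1.10), 0.83 (0.68 to 0.98) and 0.77 (0.62 to 0.93) lay under the fold required for a call. A pseudogene copy, PSPHP1, had 76 to 86 reads, and 17.2% of the 31-base words of PSPH transcripts occur in other genes, as do 15.4% of those of PSAT1, so both counts are less certain.

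The unequal difference within the route can be read inside each library, where the scaling between libraries cancels. The ratio of PHGDH to PSPH reads was 2.34 times that of Bulk in Claret (95% interval 2.02 to 2.71), 2.22 times in eGFP (1.91 to 2.58) and 2.31 times in Violet (1.99 to 2.69). For PSAT1 to PSPH the same quantity was 2.18 (1.94 to 2.45), 2.02 (1.79 to 2.28) and 2.06 (1.83 to 2.33). These within-route ratios were chosen after the values of the genes were seen.

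The hydroxymethyltransferases of cytosol and mitochondria lay on opposite sides of Bulk. SHMT1 (ENSG00000176974, chromosome 17, 18327860 to 18363563), the cytosolic enzyme, had 878 reads in Bulk against 260 (Claret), 228 (eGFP) and 277 (Violet). Bulk was the highest library, and the log2 ratios were -1.85 (-2.07 to -1.66), -1.95 (-2.17 to -1.74) and -1.66 (-1.87 to -1.47). In Claret 98.4% of all genes tested had a higher ratio than SHMT1. Its 3′ end overlaps SMCR8 on the other strand (705 to 907 reads), and use of strand in the counting is not given in the sources used here. SHMT2 (ENSG00000182199, chromosome 12, 57229327 to 57234935), the mitochondrial enzyme, had 5102, 7271, 6377 and 6690 reads over Bulk, Claret, eGFP and Violet in turn. Its log2 ratios of 0.40 (0.35 to 0.46), 0.31 (0.26 to 0.36) and 0.39 (0.33 to 0.44) were above 0 and not called.

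Among the mitochondrial folate enzymes, MTHFD2 stood further above Bulk than MTHFD1L. MTHFD2 (ENSG00000065911, chromosome 2, 74198562 to 74217565), a dehydrogenase and cyclohydrolase, had 1229 reads in Bulk against 2929 (Claret), 2556 (eGFP) and 2390 (Violet). The log2 ratios were 1.15 (1.05 to 1.24), 1.04 (0.95 to 1.15) and 0.95 (0.86 to 1.06), so that only the interval of Claret lay wholly above 1. MTHFD2 is a borderline call. Of its 31-base words 39.2% occur in other genes, mostly the overlapping SLC4A5 (6 to 27 reads), and its pseudogene copy MTHFD2P1 had 4 to 15 reads. With library totals in place of TMM scaling it was called in Violet too (1.01), and when variation between cultures was assumed at a coefficient of variation of 0.2 (edgeR exact test, Benjamini-Hochberg) it was called in none, with adjusted p of 0.0566 in Claret and 0.0842 in eGFP.

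MTHFD1L (ENSG00000120254, chromosome 6, 150865549 to 151101887), the synthetase that releases formate, had 1223, 1728, 1536 and 1478 reads over Bulk, Claret, eGFP and Violet in turn. Bulk was again the lowest library, with log2 ratios of 0.39 (0.29 to 0.50), 0.32 (0.21 to 0.43) and 0.27 (0.16 to 0.38), none called. ALDH1L2 (ENSG00000136010, chromosome 12, 105019784 to 105084577), which oxidizes formyl-folate to carbon dioxide, was weakly expressed. It had 7 reads in Bulk against 39 (Claret), 43 (eGFP) and 36 (Violet). The log2 ratios of 2.09 (1.19 to 3.78), 2.32 (1.44 to 4.01) and 2.08 (1.17 to 3.77) passed the call rule, with intervals wider than those of the other members, but the gene was kept for testing only through the libraries where it was high. ALDH1L2 overlaps C12orf45 on the other strand, which had 227 to 292 reads. On the scale log2(FPKM + 1), which compresses weak genes, its differences were 0.27, 0.32 and 0.26.

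In proline synthesis the last enzyme differed from Bulk and the first hardly did. PYCR1 (ENSG00000183010, chromosome 17, 81932384 to 81942412), the mitochondrial reductase, had 1160 reads in Bulk against 3332 (Claret), 3252 (eGFP) and 2939 (Violet). Bulk was the lowest library, and the log2 ratios were 1.41 (1.32 to 1.51), 1.48 (1.38 to 1.57) and 1.34 (1.24 to 1.44). Of the 31-base words of PYCR1, 23.9% occur in other genes, so its count is less certain too. ALDH18A1 (ENSG00000059573, chromosome 10, 95605929 to 95656706), which makes the precursor of proline and ornithine from glutamate, had 2144, 2490, 2521 and 2166 reads. Its log2 ratios were 0.11 (0.03 to 0.19), 0.22 (0.14 to 0.31) and 0.01 (-0.08 to 0.10), and the Violet value was not distinguishable from 0 at this depth. The PYCR1 to ALDH18A1 read ratio was 2.47 times that of Bulk in Claret (2.26 to 2.70), 2.38 times in eGFP (2.18 to 2.61) and 2.51 times in Violet (2.29 to 2.75). This ratio too was chosen after the values of the genes were seen.

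Levels of different genes were compared as FPKM, the authors' values, reads scaled by gene length and library size. In Bulk SHMT2 had the highest level of the 10 at 67.9 FPKM, followed by PSAT1 at 44.4, ALDH18A1 at 36.6 and PYCR1 at 25.9. In the slow-cycling libraries PSAT1 came first, with 184 FPKM in Claret, 157 in eGFP and 152 in Violet, ahead of SHMT2 at 88.6, 82.5 and 86.1. PYCR1 (68.0, 70.5 and 63.4 FPKM) then stood above ALDH18A1 (39.0, 41.9 and 35.8 FPKM), the reverse of their order in Bulk. MTHFD2 went from 16.2 FPKM in Bulk to 35.4, 32.8 and 30.6, while MTHFD1L, close to it in Bulk at 15.7 FPKM, was at 20.3, 19.1 and 18.3. PHGDH was at 3.11 FPKM in Bulk and 13.8, 12.0 and 11.9 in the others, and SHMT1 was at 7.76 against 2.10, 1.96 and 2.37. PHGDH therefore ranked below SHMT1 in Bulk and above it in the other 3 libraries. The deposited gene length of PHGDH, 9217 bases, is far above the 2188 bases of PSAT1, which lowers its FPKM. That of SHMT2 is 4838 bases, and by reads SHMT2 stood above PSAT1 in every library (7271 and 6823 in Claret). The order of PSAT1 and SHMT2 in the slow-cycling libraries therefore depends on the lengths used. ALDH1L2 had the lowest level of the 10 in every library, between 0.0529 and 0.316 FPKM.

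**Figure D2:**
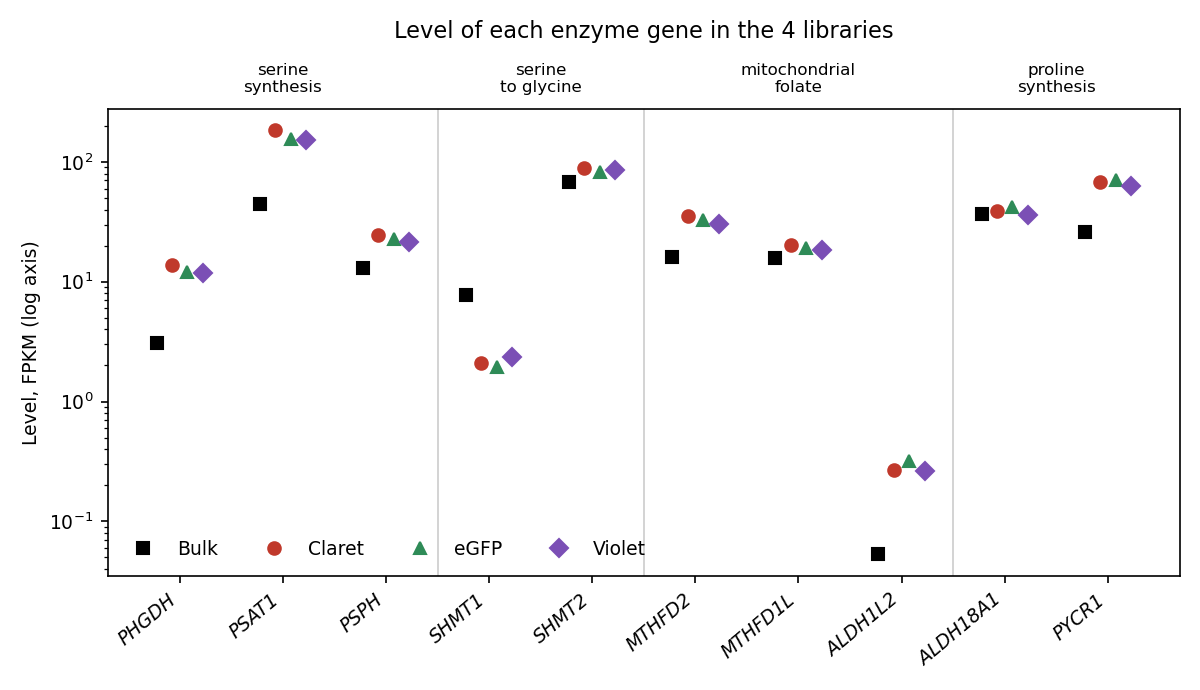
FPKM on a log axis for each of the 10 enzyme genes in Bulk (squares), Claret (circles), eGFP (triangles) and Violet (diamonds), 1 library each. Bulk is the lowest point for 8 genes, the highest for SHMT1, and lies between Violet and Claret for ALDH18A1.

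Several members have a paralog that does the same reaction elsewhere in the cell, and the balance between them was read within each library. Each FPKM ratio depends on the deposited gene lengths, such as 4838 bases for SHMT2 and 7281 for SHMT1. The change of a ratio against Bulk does not. SHMT2 stood at 8.75 times the FPKM of SHMT1 in Bulk, and at 42.1 times in Claret, 42.1 times in eGFP and 36.3 times in Violet. This balance was 4.81 times that of Bulk in Claret (95% interval 4.17 to 5.57), 4.81 times in eGFP (4.14 to 5.62) and 4.16 times in Violet (3.61 to 4.80). MTHFD1L, the mitochondrial synthetase, was below its cytosolic relative MTHFD1 in Bulk, at a ratio of 0.842, and above it in the others, at 3.15, 3.21 and 3.24. The change in that ratio was 3.74-fold (3.38 to 4.16), 3.82-fold (3.43 to 4.25) and 3.85-fold (3.45 to 4.29), and most of it lay in MTHFD1, which had 2714 reads in Bulk, against 853 to 1024 in the others. The count of MTHFD1 is less certain, since 18.5% of its 31-base words occur in other genes.

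MTHFD2L, a second mitochondrial dehydrogenase, had 133 reads in Bulk, against 148 to 156 in the others, and its intervals against Bulk included 0. The MTHFD2 to MTHFD2L level ratio was 18.6 in Bulk and 37.9, 34.8 and 31.1 in the other libraries, in the same order. PYCR3, the cytosolic reductase, was called lower, with 490 reads in Bulk against 245 (Claret), 222 (eGFP) and 208 (Violet) and log2 ratios of -1.10, -1.15 and -1.23. PYCR1 was at 2.66 times the FPKM of PYCR3 in Bulk and at 15.3, 16.5 and 15.9 times in the others. ALDH1L1, the cytosolic relative of ALDH1L2, had 2 to 6 reads, and with so few the change in their ratio was not detectable at this depth (95% interval in Claret 0.592 to 48.6).

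**Figure D3:**
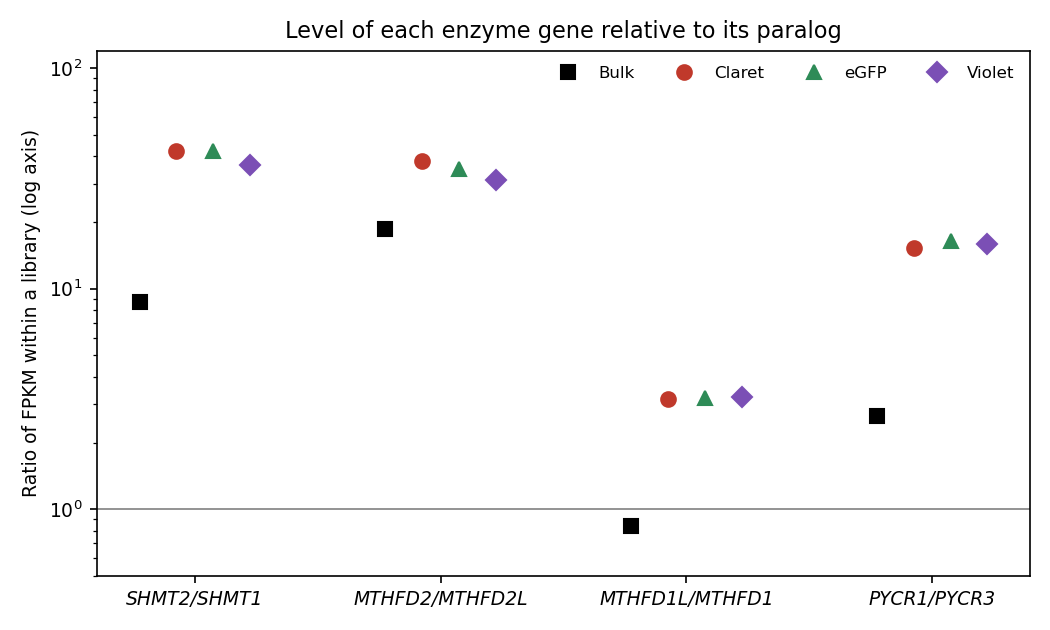
Ratio of FPKM of a mitochondrial enzyme gene to its paralog within each library, on a log axis, for 4 pairs. Bulk (squares) is the lowest of the 4 libraries in each pair, and for MTHFD1L over MTHFD1 it alone lies under 1.

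Between the slow-cycling libraries, none of the 10 was called in any of the 3 pairs. Few genes of any kind were called in these pairs, so this says little about the enzymes. Of all genes tested, 0.309% were called higher and 0.405% lower in Claret than in eGFP, 0.226% and 0.562% in Claret than in Violet, and 0.288% and 0.644% in eGFP than in Violet. The largest difference among the 10 was 0.29 on the log2 scale, for SHMT1 between eGFP and Violet. By adjusted p alone, 4 of the 10 differed between Claret and eGFP, 4 between Claret and Violet and 3 between eGFP and Violet, beside 12.3%, 17.2% and 16.9% of all genes. The test finds smaller differences in genes with more reads, and these shares were not matched for reads. PSAT1 was higher in Claret than in eGFP by 0.22 (0.17 to 0.27) and than in Violet by 0.25 (0.20 to 0.30). PHGDH was higher in Claret by 0.19 against each of the other slow-cycling libraries (0.10 to 0.29 and 0.10 to 0.28). ALDH18A1 was higher in eGFP than in Violet by 0.21 (0.13 to 0.30). The others were SHMT2 and ALDH18A1 between Claret and eGFP, PSPH and MTHFD2 between Claret and Violet, and SHMT2 and PYCR1 between eGFP and Violet, with log2 differences between -0.11 and 0.19. With an assumed coefficient of variation of 0.2, none of the 10 passed in any of these pairs.

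**Figure D4:**
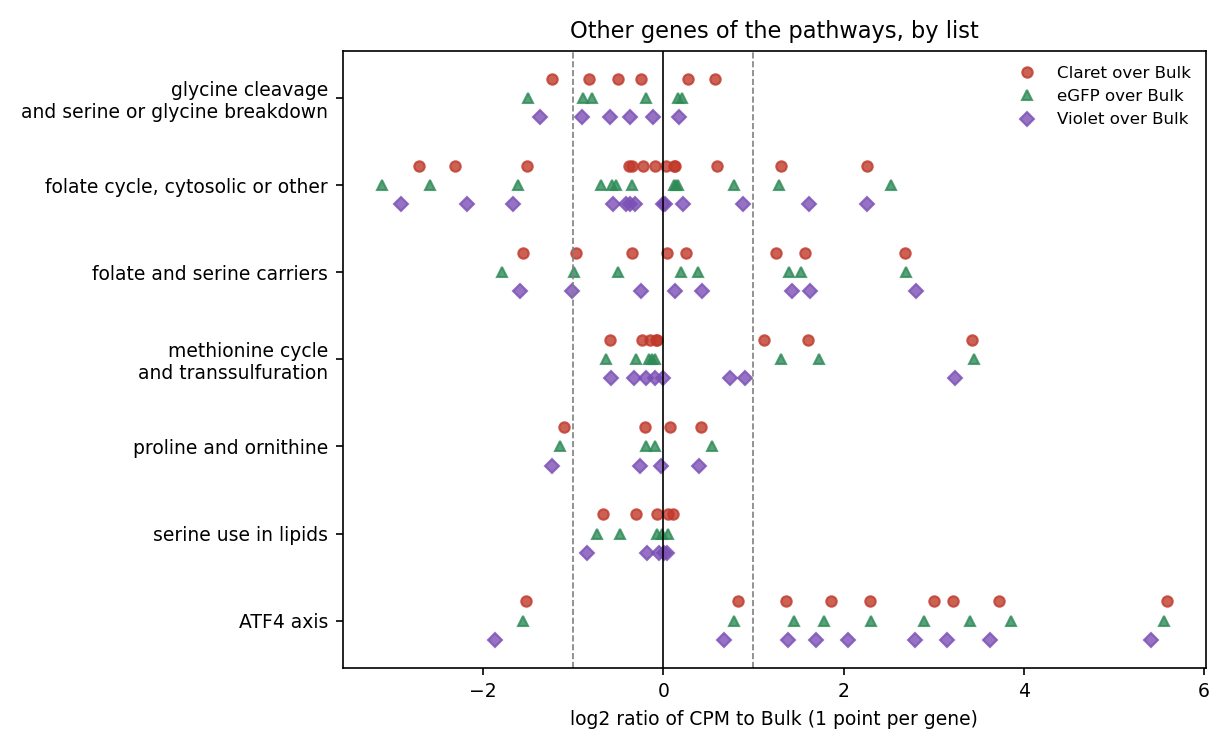
Log2 ratio of CPM to Bulk (horizontal axis) for the other genes of the pathways, 1 point per gene and library, grouped by list. Dashed lines mark ratios of 1 and -1, and the lists of folate genes, carriers and the ATF4 axis hold points beyond both lines.

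A wider list of 63 genes covers the rest of these pathways and the ATF4 axis, and 53 of them had a mean of at least 1 CPM. Against Bulk 15 were called higher and 7 lower in Claret, 15 and 7 in eGFP, and 13 and 8 in Violet, with medians of 0.05, -0.01 and -0.01. The shares over all genes tested were the 11.2% higher and 6.67% lower of Claret, 11.9% and 7.6% of eGFP, and 11.3% and 7.01% of Violet given above. Of the genes called higher, FTCD, FOLR1 and MAT1A were under 1 CPM in Bulk and were kept only through libraries where they were higher, so their calls carry no weight in these counts. For the lists that follow, calls in all 3 libraries compare with 8.36% higher and 4.92% lower over all genes. In the cytosolic and other folate genes, 3 of the 13 measured were called lower in all 3 libraries and 2, FTCD among them, higher, the latter a share near that of all genes once FTCD is set aside. Those lower included MTHFD1 (-1.51, -1.61 and -1.67) and thymidylate synthase TYMS (-2.71, -3.12 and -2.91), although 35.7% of the 31-base words of TYMS occur in ENOSF1. FTCD had 7 reads in Bulk, against 41 to 50 in the others. The purine enzymes GART and ATIC, which use formyl-folate, had log2 ratios between -0.34 and 0.16.

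Of 8 measured carriers of folate and serine, 3, FOLR1 among them, were called higher in all 3 libraries and 1 lower, beside 8.36% and 4.92% of all genes. SLC1A4, which carries serine and other neutral amino acids into the cell, had 129 reads in Bulk against 904 (Claret), 848 (eGFP) and 914 (Violet), with log2 ratios of 2.68, 2.69 and 2.80. SLC1A5, a carrier of glutamine and other neutral amino acids, had ratios of 1.58, 1.53 and 1.43. The count of SLC1A5 is less certain, since 22.8% of its 31-base words occur in other genes. FOLR1, a folate receptor, had 9 reads in Bulk, against 26 to 32 in the others. It was kept only through the libraries where it was higher, so its call carries no weight in this count of carriers. Among the sideroflexins, SFXN1, the carrier of serine into mitochondria, had 3412 reads in Bulk against 1881 (Claret), 1723 (eGFP) and 1689 (Violet), and its log2 ratios, between -1.02 and -0.96, lay around the fold required for a call. SFXN2 was called lower, with log2 ratios of -1.56, -1.79 and -1.60, and SFXN3 had 0.05, 0.20 and 0.13.

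In the list of glycine cleavage and serine or glycine breakdown, GLDC had 0 to 4 reads and AMT 3 to 13, too few to be kept. Of the 31-base words of AMT, 61.2% occur in other genes. GCSH, with log2 ratios of -0.83, -0.89 and -0.91, and DLD, with -0.51, -0.79 and -0.59, were below Bulk and not called. Of 6 measured genes in that list, GLYCTK, a glycerate kinase, was called lower in all 3 libraries, with 197 reads in Bulk, against 69 to 89 in the others. CTH, which makes cysteine from cystathionine, was the 1 methionine-cycle or transsulfuration gene called in all 3, from 54 reads in Bulk to 647, 611 and 528 and log2 ratios of 3.43, 3.44 and 3.24. CBS, the step before CTH, had 0 or 1 read, but 55.9% of its 31-base words occur in CBSL, so its counts say little. The same holds for the mitochondrial folate carrier SLC25A32, with 9 to 12 reads and 78.0% of such words in other genes. None of the 5 genes that use serine for lipids was called, and their log2 ratios lay between -0.85 and 0.11.

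In the ATF4 axis 7 of 9 genes were called higher and 1 lower in all 3 libraries, beside 8.36% and 4.92% of all genes. ATF4 had 3629 reads in Bulk against 14198 (Claret), 12544 (eGFP) and 11767 (Violet), with log2 ratios of 1.86, 1.78 and 1.69. Asparagine synthetase ASNS, another known target, had 26, 395, 405 and 345 reads in that order and ratios of 3.72, 3.85 and 3.63. Other genes hold 42.7% of its 31-base words. AC079781.5 alone holds 42.2% and had 121, 220, 232 and 175 reads in the same order, more than ASNS in Bulk. How reads were split between them is not known, so the ratios of ASNS are not ranked against those of the 10 enzymes. CHAC1, which breaks down glutathione, had 33, 1810, 1652 and 1488 reads, and TRIB3, ATF3, DDIT3 and CEBPB had log2 ratios between 1.36 and 3.40. The counts of ATF4, DDIT3 and ATF5 are less certain, since 29.7%, 28.9% and 20.6% of their 31-base words occur in other genes. ATF5 was lower (-1.52, -1.55 and -1.86), and MYC was at 0.83, 0.79 and 0.68, not called. These lists were chosen with earlier results of the same libraries known, so their direction is not independent evidence.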

How the data were processed

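RNA was extracted with TRIzol and sequenced from NEBNext Ultra libraries, per the labels' protocols. The deposited count table holds raw read counts per gene in whole numbers, per the file headers. HISAT2 2.0.5 and featureCounts 1.5.0-p3 are named in the submitters' processing notes, and strand use and handling of reads matching several genes are not given in the sources used here. The deposited FPKM derive from those counts: within a library, FPKM multiplied by the listed gene length and divided by the count gave 1 constant. Gene start and end equal those of GENCODE 29 (GRCh38) for 58724 of 58735 genes.

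Genes with a mean of at least 1 CPM were kept (14585). Library sizes were scaled by TMM (edgeR 4.0.16, R 4.3.3), and a prior count of 2 entered each log2 ratio of CPM. With 1 library per group no quasi-likelihood test could be fitted. Reads were therefore compared by a two-sided exact conditional binomial test (SciPy 1.17.1) with Benjamini-Hochberg adjustment over all genes kept. The test was run on simulated reads with counting error only, as it assumes, so that check does not cover variation between cultures. A call needed an adjusted p under 0.05 and a log2 ratio of at least 1 in size. Intervals are 95% exact (Clopper-Pearson), and those of a change in a ratio of 2 genes are exact conditional intervals of the odds ratio. A match of 31-base words was sought on both strands of all GENCODE 29 transcripts.

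Named genes are all 10 members, their paralogs, copies or overlapping genes that hold reads, and listed genes called the same way in all 3 comparisons with Bulk; other names were chosen after their values were seen. Some genes this rule would name are not reported here. The members and lists were chosen with earlier results of these data known. Alternatives were scaling by library totals or DESeq2 1.42.0 size factors, no filter, a filter at 10 CPM, a prior count of 0.5, log2(FPKM + 1), a correction for transcript GC content, edgeR's exact test with an assumed coefficient of variation of 0.2, and groups from the treatment field.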

Additional observations from a re-analysis of the deposited data

How the results depend on the processing

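With groups from the treatment field, Claret had 1 enzyme called higher and 4 lower than Bulk with a median of -0.86, and the wider list had 8 higher and 13 lower. Under the same field eGFP and Violet had 0 called in either direction, in the 10 enzymes and in the wider list, with medians of 0.11 and 0.053. On log2(FPKM + 1) the medians of the 10 were 0.63 (Claret), 0.54 (eGFP) and 0.51 (Violet), and 3 enzymes were called higher in eGFP, since MTHFD2 (0.97) and ALDH1L2 fell under 1. ALDH18A1 in Violet changed sign under DESeq2 size factors (-0.032), log2(FPKM + 1) (-0.031) and the GC correction (-0.0034). Between slow-cycling libraries, enzymes with an adjusted p under 0.05 numbered 7 for Claret and Violet under DESeq2 size factors and 0 in each pair with an assumed coefficient of variation of 0.2. No setting moved the median of all genes against Bulk by more than 0.09 on the log2 scale. A filter at 10 CPM removed ALDH1L2. The other numbers of calls and medians stayed within 1.5 times or within the counting interval under the other settings run. No paired analysis was possible because each group holds 1 library and the labels give no replicate numbers. Depth limited ALDH1L2, whose 7 reads in Bulk leave its log2 ratio in Claret anywhere from 1.19 to 3.78.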
